A study of Mus musculus with 4 samples.

Results

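The cell cycle and mitosis genes described here are 45 genes chosen by name for their roles in the division cycle, out of 22909 genes that the array probes name. They comprise 18 genes of S phase, when DNA is copied, and 27 genes of mitosis, when the copies are separated. All 45 had at least 1 probe, 69 probes in all, and 21 of them had several. Of the 45, 38 were well above background on all 4 arrays, 44 on at least 1, and Ccne2, which encodes cyclin E2, on none.

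Expression was measured in sorted CD8 T cells of C57BL/6 mice of the genotype PD-1-/-, which all 4 groups shared, so that no PD-1-sufficient cells were compared. The cells came from spleen and lymph node. The mice were 1 to 3 months old and had received no treatment, per the labels. P1 cells had the naive phenotype (CD44low CD62Lhigh) and P2 cells the central memory phenotype (CD44high CD62Lhigh). P3 cells had the effector or effector memory phenotype (CD44high CD62Llow), and P4 cells the less familiar combination CD44low CD62Llow that the study characterised. CD44 is an adhesion receptor that stays high after antigen experience, and CD62L is the receptor that admits lymphocytes to lymph nodes. Each subset was hybridised to 1 single-colour Agilent array, so no test between subsets was possible, and how many animals were behind an array is not stated in the labels. The 4 arrays shared 1 slide, so the position on it cannot be told apart from the subset.

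A naive T cell rests outside the cell cycle, and antigen drives it into rapid division. On entry into S phase, E2F transcription factors switch on the genes that load and run the replication fork and those that make deoxynucleotides. Later, the MuvB complex with B-MYB and FOXM1 switches on the mitotic genes, many of which carry a cell cycle homology region (CHR) and CCAAT boxes near their start. In resting cells the DREAM complex holds both groups down.

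Levels are log2 of the processed spot signal relative to the 75th percentile of the same array, so a level of 0 equals that percentile. Where 4 levels are listed they stand in the order P1, P2, P3, P4, and differences between arrays are differences of these log2 levels. Levels of different genes come from different probes and are not set against each other. A difference of 1 on this scale is 2-fold, the size used for counting. Where a gene was not well above background on the lower array, its value there was set no lower than that array's dimmest signal still well above background, and the fold is given as "at least". A spot is said to lie in a locally bright area where unusually many neighbouring spots were raised at least 2-fold over the same spots on the other arrays. Repeated spots within an array gave a log2 difference a 95% margin of ±0.18 at levels of 0 or more, ±0.29 from -3 to 0 and ±0.61 below -3, which covers no variation between mice, sorts or labelling. In these pooled cells a larger share of cycling cells and more transcript per cycling cell cannot be told apart.

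The arrays differed in more than the cell cycle. Between 27827 and 30811 of 56605 probes were well above background, the most in P3, and the 75th percentile of signal was 799.2 in P3 against 453.1 to 481.2 in the other subsets. All 9 CD8 T cell markers with a probe were well above background on every array, with a summed signal of 720 (P3) to 911 (P1) times the 75th percentile. The Cd44 level was high in P2 and P3 (2.26 and 2.11) and low in P1 and P4 (-1.80 and -1.24), matching the labels. Type 1 dendritic cell markers were well above background for 14 of 14 genes in P3, against 6 in P1, 10 in P2 and 9 in P4, with a summed signal of 56 in P3 and 2.69 to 9 elsewhere. Their defining genes Xcr1 and Clec9a were not well above background in P1, P2 or P4. Class II and type 2 dendritic cell genes were above background for 11 of 12 genes in P3 and 8 or 9 elsewhere. They summed to 219 in P3 and 7.82 to 12.3 elsewhere without Mgl2, a lectin gene left out after its values were seen because it was bright on every array, and to 346 in P3 and 112 to 129 elsewhere with it. Macrophage markers were above background for 16 of 18 genes in P3 and 6 to 11 elsewhere, with a summed signal of 202 in P3 and 106 to 304 elsewhere. Without Ly6c2, Ctss and Itgam, likewise bright on every array, that sum was 30.8 in P3 and 2.58 to 4.04 elsewhere. B cell markers were above background for 10 of 12 genes in P3 and 4 to 6 elsewhere, with summed signals of 10.1 to 13.2 on all arrays, and Pax5 and Blk were not above background on any. Plasma cell markers were above background for 9 of 10 genes in P3 and 5 to 8 elsewhere, with summed signals of 45.5 in P3 and 32.6 to 37.8 elsewhere. Erythroid markers were above background for 6 of 11 genes in P3 and 4 to 6 elsewhere, with summed signals of 9.41 in P3 and 2.18 to 2.35 elsewhere, led by the globin genes Hba-a1 and Hba-a2, while Klf1, Alas2, Slc4a1 and Epb42 were above background on no array. Natural killer genes, a list that cytotoxic T cells partly share, were above background for 11 of 13 genes in P2, P3 and P4 and 6 in P1, with summed signals of 104, 237, 381 and 314 from P1 to P4 and with Ncr1 and Klrb1b not above background on any array. Smaller differences of the same kind lay between the other arrays. In P4 minus P1, 4 of 9 measured type 1 dendritic cell markers were at least 2-fold higher and 0 lower (median 0.85). The same held for 4 of 9 class II and type 2 dendritic cell markers (median 0.85). Of 9 macrophage markers, 1 was higher and 1 lower (median 0.03). Among all genes, 5.46% were that much higher and 1.75% lower. In P2 minus P1, 3 of 10 type 1 dendritic cell markers were higher and 0 lower (median 0.61). Of 9 class II and type 2 dendritic cell markers, 3 were higher and 1 lower (median 0.13). Of 11 macrophage markers, 4 were higher and 0 lower (median 0.54). The shares of all genes in that pair were 4.75% higher and 2.53% lower. The part of these transcripts in the values below was not tested in any pair.

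S phase and mitotic genes differed in the letters of their promoters. Promoters of 300 bases, from 250 before to 50 after the start of transcription, were given by RefSeq (GRCm38.p6) for 36 of the 45 genes. The CHR letters TTTGAA, on either strand, stood in 16 of 21 mitotic promoters (76.2%) and in 2 of 15 S phase promoters (13.3%), against 20.2% of 27025 genes with a promoter. CCAAT stood in 19 of 21 (90.5%) and 10 of 15 (66.7%), against 41.1%. The E2F letters TTTCCCGC, TTTGGCGC, TTTCGCGC or TTTGCCGC stood in 6 of 15 S phase promoters (40%) and in 1 of 21 mitotic promoters (4.76%), that of Cdk1, against 2.6%. All 16 mitotic promoters with the CHR letters held CCAAT too. A match of letters is no evidence of binding. Below are the last 150 bases before the start, 5′ to 3′ on the gene's own strand, with every motif wholly inside them in capitals. Mki67, Ube2c and Cdk1 are shown because their transcripts stood among the mitotic genes farthest apart between subsets, and each held CHR letters and CCAAT. Birc5 and Nusap1, not shown, also stood far apart in P3 minus P1 (3.20, and 3.67 or more). Their windows held none of these letters. Mcm6 and Mcm5 are shown as fork genes with E2F letters. Tk1 is shown because its transcript differed most between P1 and P3 among genes above background on both arrays, although its window held none of these letters.
Mki67: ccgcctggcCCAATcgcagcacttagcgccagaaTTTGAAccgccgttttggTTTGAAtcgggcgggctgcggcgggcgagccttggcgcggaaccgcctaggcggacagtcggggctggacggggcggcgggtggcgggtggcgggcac
Ube2c: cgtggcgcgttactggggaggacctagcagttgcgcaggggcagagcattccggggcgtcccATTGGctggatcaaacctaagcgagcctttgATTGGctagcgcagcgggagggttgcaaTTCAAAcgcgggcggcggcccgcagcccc
Cdk1: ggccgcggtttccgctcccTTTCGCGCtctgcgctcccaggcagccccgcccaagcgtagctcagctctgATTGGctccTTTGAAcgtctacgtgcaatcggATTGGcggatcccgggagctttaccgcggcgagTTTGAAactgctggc
Mcm6: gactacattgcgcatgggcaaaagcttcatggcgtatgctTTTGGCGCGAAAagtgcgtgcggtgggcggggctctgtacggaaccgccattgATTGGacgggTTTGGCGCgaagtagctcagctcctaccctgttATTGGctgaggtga
Mcm5: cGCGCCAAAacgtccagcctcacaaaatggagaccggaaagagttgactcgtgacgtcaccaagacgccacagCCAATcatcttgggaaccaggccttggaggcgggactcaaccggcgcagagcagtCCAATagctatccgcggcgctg
Tk1: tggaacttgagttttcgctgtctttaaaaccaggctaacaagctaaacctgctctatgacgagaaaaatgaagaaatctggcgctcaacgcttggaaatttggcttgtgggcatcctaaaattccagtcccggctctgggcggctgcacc
These stretches are chr7:135716380-135716529 (minus strand) for Mki67, chr2:164769779-164769928 (plus strand) for Ube2c, chr10:69352913-69353062 (minus strand) for Cdk1, chr1:128359706-128359855 (minus strand) for Mcm6, chr8:75109359-75109508 (plus strand) for Mcm5 and chr11:117826015-117826164 (minus strand) for Tk1. In Mcm6 the first run of capitals holds E2F letters on both strands that overlap. Among mitotic genes the P3 minus P1 difference had a median of 2.36 for the 16 with the CHR letters and 2.57 for the 5 without.

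**Figure D1:**
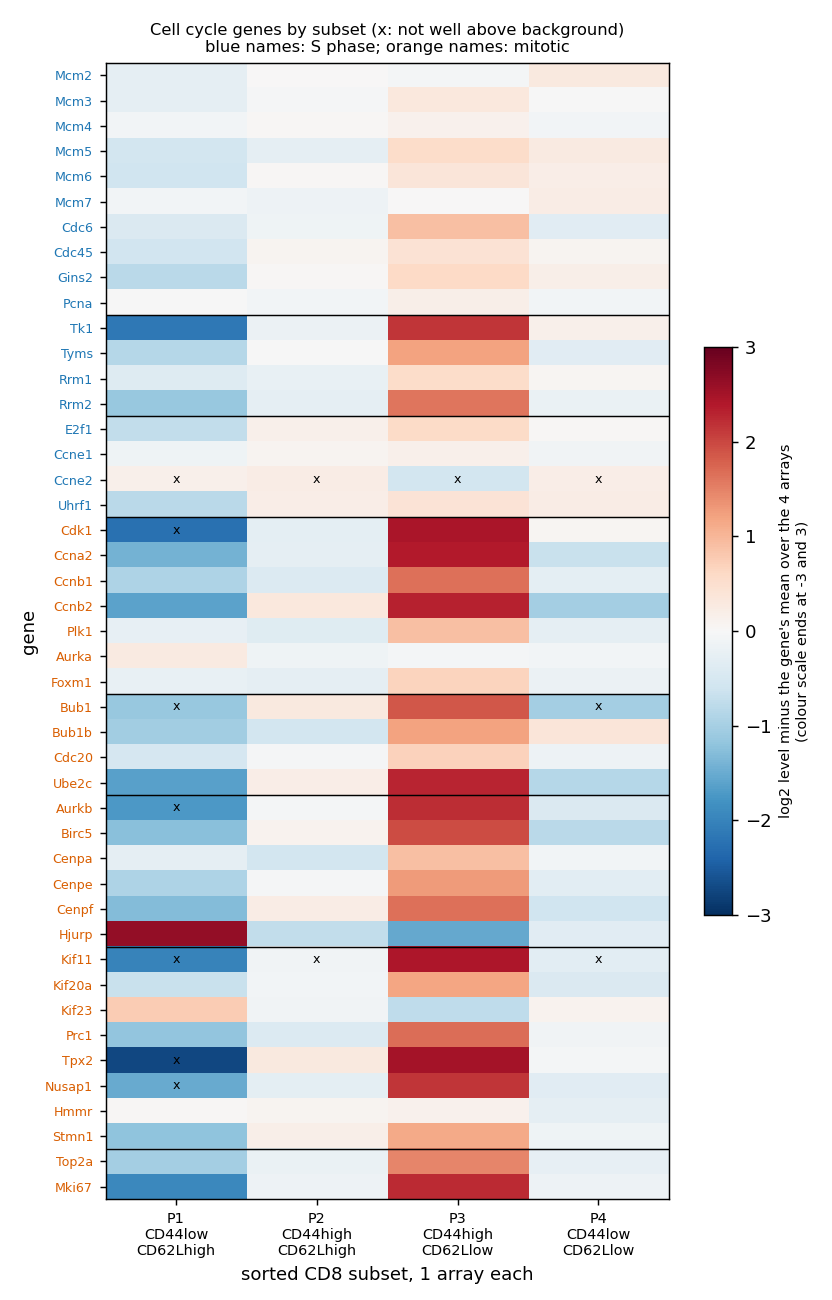
Each row is a gene and each column a subset with 1 array. Colour gives the log2 level minus the gene's mean over the 4 arrays, from blue (low) to red (high), with the scale ending at -3 and 3. Crosses mark values not well above background, and lines separate the roles. P3 was the highest array for 39 of the 44 measured genes, and P1 the lowest for 35, with crossed values ranked as read.

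Across the 44 genes above background on at least 1 array, P1 was the lowest and P3 the highest array for 34, comprising 14 of 17 S phase and 20 of 27 mitotic genes. P1 was the highest array for Hjurp, Kif23 and Aurka, and P4 was the highest for the helicase genes Mcm2 and Mcm7. P2 was the highest array for 0 genes. This is the order of single arrays, and many neighbouring levels lay within spot noise of each other. Values not well above background were ranked as read. For Bub1 and Kif11 both P1 and P4 were such values, so which array was lowest is not known.

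The comparison of P4 with P1 asks how far the division genes of CD44low cells differed with low CD62L. Past 2-fold and higher in P4 were 9 of 42 measured genes (21.4%), against 5.46% of all 13160 measured genes, and 1 was at least 2-fold lower, against 1.75%. The 9 were Tk1, Mki67, Bub1b, Nusap1, Stmn1, Prc1, Tpx2, Uhrf1 and Aurkb, and the lower gene was Hjurp. With both arrays above background 6 of 38 were higher, against 3.36% of all genes, since Nusap1, Tpx2 and Aurkb were above background in P4 but not in P1. Under normexp background correction 3 were past 2-fold (Tk1 at 1.57, Mki67 at 1.53 and Stmn1 at 1.09), against 3.06% of all genes. With probes averaged the value for Aurkb was -0.71, a sign set by raising its P1 average to the dimmest signal above background. The genes nearest the threshold were Aurkb at 1.02 and Gins2 at 0.97. The median difference was 0.56 for S phase genes and 0.63 for mitotic genes, against -0.06 for all genes. The gap between these medians was 0.07 and lay between -0.11 and 0.16 under other processing, so its sign depended on the processing.

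Replication fork and licensing genes had the smallest median difference from P1 of the S phase roles. Mcm5, a subunit of the helicase that opens DNA ahead of the fork, had levels of 1.86, 2.14, 2.95 and 2.68. Mcm6, of the same helicase, had levels of 3.59, 4.23, 4.56 and 4.39. For Mcm5 P3 and P4 stood above P1 and P2, and for Mcm6 P1 stood below the other 3 arrays. Mcm2 had levels of 1.45, 1.73, 1.65 and 2.0 and Mcm7 of 3.02, 2.94, 3.11 and 3.32, with P4 the highest array. Pcna, the sliding clamp of the polymerases, had levels between 4.85 and 5.10, within 0.25 of each other. Gins2, a subunit of the GINS complex that completes the active helicase, had the largest P3 minus P1 difference of the group, with levels of -1.57, -0.72, -0.15 and -0.59. Cdc6, which loads the helicase at origins, was set apart by P3, with levels of -2.29, -2.00, -0.97 and -2.21. The smallest P3 minus P1 difference was 0.10 for Mcm7, while Mcm3, Mcm4 and Cdc45 differed by 0.60, 0.21 and 1.01. The group's median differences from P1 were 0.43 in P4, 0.28 in P2 and 0.78 in P3. Past 2-fold were 0 of 10 genes in P4 and in P2, where 5.46% and 4.75% of all genes were that much higher, too few genes to set against those shares.

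Genes of deoxynucleotide synthesis varied more. Tk1, which encodes thymidine kinase of the salvage pathway, had levels of -2.89, -0.93, 1.40 and -0.59. P1 was far below every other array, and P2 and P4 lay near each other. Tk1 was thus 4.94-fold higher in P4 than in P1, by 2.30 on the log2 scale. That was the largest difference upward among the 38 genes above background on both arrays of that pair. The second Tk1 probe gave 2.07. Rrm2, the regulated subunit of ribonucleotide reductase, had levels of -0.83, 0.03, 1.90 and 0.10, and its partner Rrm1 had levels of 0.48, 0.66, 1.42 and 0.92. Tyms, which makes thymidylate, had levels of -0.08, 0.78, 1.98 and 0.44. In these 4 genes P1 was the lowest and P3 the highest array, and the P3 minus P1 differences ran from 0.94 (Rrm1) to 4.29 (Tk1).

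Uhrf1, listed here with the regulators of S phase entry, acts in restoring DNA methylation on copied strands. It had levels of 0.14, 1.15, 1.36 and 1.17. P1 alone stood low, by 1.02 against P4, and the other 3 arrays lay within 0.21 of each other. Ccne1, which encodes cyclin E1, had levels of 1.41, 1.62, 1.69 and 1.42, the smallest P3 minus P1 difference of this role (0.27). E2f1 had levels of -1.89, -1.0, -0.57 and -1.12, but its spot on the P1 array lay in a locally bright area. Ccne2 had no value above background on any array.

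The mitotic cyclins and kinases were set apart mainly by P3. Cdk1, the kinase that drives entry into mitosis, was not well above background in P1 and had levels of -4.27 in P2, -1.54 in P3 and -3.92 in P4, which put P3 at least 8.73-fold and P4 at least 1.69-fold above P1. Its partner Ccnb2, cyclin B2, had levels of -1.86, 0.07, 2.06 and -1.26. Here P2 stood well above P4, and P4 was above P1 by 0.60. Ccna2, cyclin A2, had levels of -3.68, -2.53, 0.12 and -2.92, and Ccnb1, cyclin B1, of -3.86, -3.35, -1.29 and -3.23. In both, P3 stood more than 2-fold above every other array. Plk1, a kinase of spindle and cytokinesis, and Foxm1, the transcription factor of this gene group, differed by 1.14 and 0.89 between P3 and P1 and by -0.04 and 0.05 between P4 and P1. Aurka, the centrosomal Aurora kinase, had levels of 1.02, 0.63, 0.70 and 0.67, with P1 the highest array and a P3 minus P1 difference of -0.32.

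Ube2c and Cdc20 act with the anaphase-promoting complex, which marks mitotic proteins for destruction, and Bub1 and Bub1b belong to the checkpoint that restrains it. Ube2c, its E2 enzyme, had levels of -3.61, -1.77, 0.32 and -2.82. P2 again stood above P4. Bub1b had levels of -4.48, -3.98, -2.22 and -3.08, so that P4 stood above P2, and it was 2.63-fold higher in P4 than in P1, although dim on all arrays (0.50 under normexp correction). Cdc20, the activator of the complex, differed least in this role, with levels of -0.05, 0.43, 1.14 and 0.30. Bub1 was above background in P2 and P3 only, at -4.03 and -2.45, and its P3 spot lay in a locally bright area.

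Of the chromosomal passenger complex, Birc5 (survivin) had levels of -0.41, 0.97, 2.80 and 0.04. Its second probe gave -4.30, -1.48, -0.50 and -4.53 (not above background), so both put P2 and P3 above P1 and P4. P4 minus P1 was 0.44 by the first probe and -0.23 by the second, the latter within the spot margin. Aurkb, the kinase of that complex, was not above background in P1 and had levels of -3.30, -1.02 and -3.65 in P2, P3 and P4, with bounds of at least 12.6-fold for P3 and at least 2.02-fold for P4. Its second probe was above background in P3 alone. The kinetochore genes Cenpf and Cenpe had P3 minus P1 differences of 2.95 and 2.20 and P4 minus P1 differences of 0.70 and 0.60. Cenpa, the histone H3 variant of centromeres, had levels of 0.55, 0.27, 1.72 and 0.75, the smallest P3 minus P1 difference in this direction (1.16).

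Hjurp, the chaperone that places Cenpa, ran the other way, with levels of -0.37, -3.75, -4.55 and -3.34. P1 stood 7.84-fold above P4, and the other 3 arrays were low. Its spot on the P1 array lay in a locally bright area, and Hjurp had no other probe. Without such spots 0 genes were 2-fold lower in P4 than in P1.

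Spindle motors and microtubule proteins held 4 of the 9 genes higher in P4. Stmn1, which destabilises microtubules, had levels of 1.74, 3.11, 4.09 and 2.82, and its second probe gave a P4 minus P1 difference of 1.07 against 1.08. Prc1, which bundles the microtubules of the midzone, had levels of -2.07, -1.30, 0.78 and -1.0. In both genes P1 was low and P3 high, with P2 and P4 between. Nusap1 and Tpx2, which organise spindle microtubules, were not above background in P1 and had levels of -3.44 and -3.62 in P4, at least 2.28-fold and at least 2.08-fold higher. In P3 their bounds were at least 12.7-fold and at least 12.2-fold. Kif11, the motor that keeps spindle poles apart, was above background in P3 alone, at -1.97. Kif20a, a motor of cytokinesis, had levels of -2.70, -2.12, -0.86 and -2.49, and its P1 spot lay in a locally bright area.

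Kif23, another motor of cytokinesis, was lower in P3 than in P1 by its brighter probe only. The brighter probe had levels of 0.75, -0.12, -0.79 and 0.09, a P3 minus P1 difference of -1.54. The dimmer had levels of -3.14, -3.25, -2.73 and -3.13, a difference of 0.41, within the spot margin of ±0.61. Hmmr, a spindle-binding protein, had a bright probe with levels of -0.45, -0.40, -0.35 and -0.75, in a locally bright area in P3, and 2 dim probes that were above background in P3 alone, at -5.11 and -3.78. Probes of 1 gene differed in sign for 2 of 15 genes with several measured probes in P4 minus P1 (Birc5 and Kif23). They did so for 2 of 19 in P3 minus P1 (Kif23 and Hmmr). In Birc5 and Kif23 the dimmer probe's difference lay within the spot margin. In Hmmr the sign came from a dim probe whose P3 level (-5.11) lay below the value its P1 level was raised to (-4.67). Before that step all Hmmr probes were higher in P3, by 0.10, 1.74 and 3.04.

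**Figure D2:**
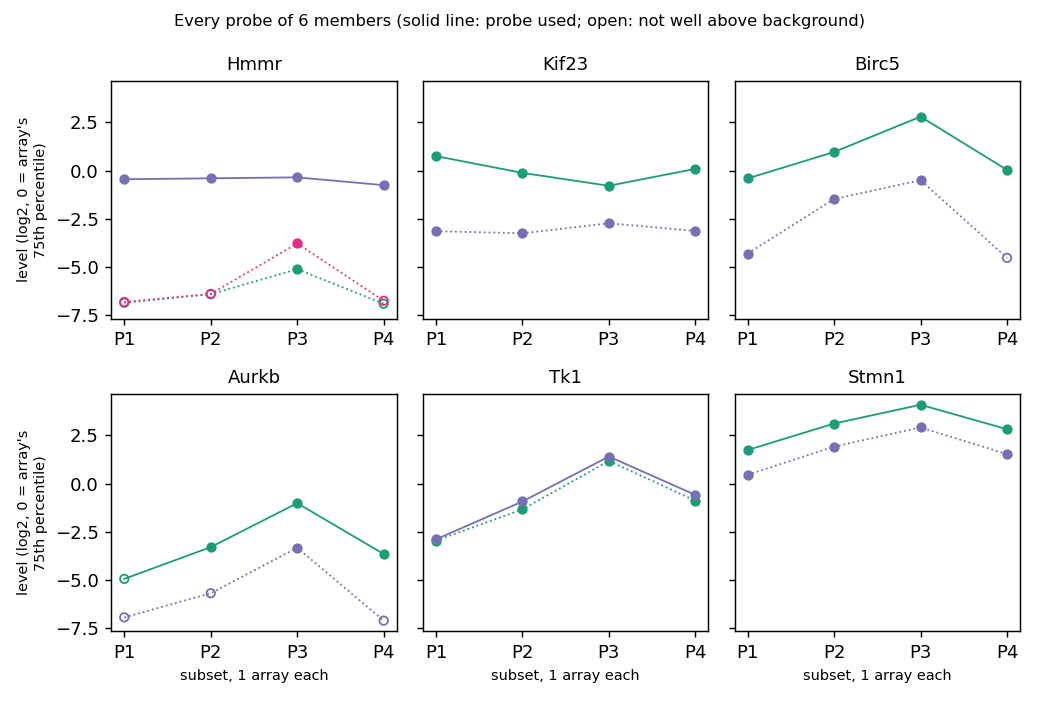
Each panel shows 1 gene and each line 1 probe, as log2 level against subset with 1 array each. Solid lines are the probes used and open points are not well above background. The probes of Tk1, Stmn1 and Aurkb run alike from P1 to P3, and those of Kif23 and Hmmr do not. Those of Birc5 part between P1 and P4, where the dimmer probe's difference lies within the spot margin.

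Mki67, which coats mitotic chromosomes and serves as the usual marker of cycling cells, had levels of -1.54, 0.26, 2.63 and 0.26. P2 and P4 did not differ beyond spot noise (0.01), P1 was lower by 1.80 in each case, and P3 was the highest. Top2a, which untangles DNA before segregation, had levels of -0.98, -0.18, 1.49 and -0.21. The P3 spot of that probe lay in a locally bright area, and the second Top2a probe gave a P3 minus P1 difference of 2.32 against 2.47.

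P3 was set against P1 to ask how far effector and naive phenotype cells differed. Past 2-fold and higher in P3 were 31 of 44 measured genes (70.5%), against 12.4% of 14088 measured genes, and Hjurp and Kif23 were lower, against 7.11%. The medians were 1.01 for the 17 S phase genes (9 past 2-fold) and 2.47 for the 27 mitotic genes (22 past 2-fold), against -0.11 for all genes. Among genes above background on both arrays, the largest differences were Tk1 at 4.29, Mki67 at 4.17, Ube2c at 3.93, Ccnb2 at 3.92 and Ccna2 at 3.79. Genes not above background in P1 give bounds only and cannot be ranked with them, such as Nusap1 at 3.67 or more. With both arrays above background 25 of 38 were higher, against 7.93% of all genes. With only the 21 mitotic genes above background on all 4 arrays the median was 2.26. Under normexp correction it was 1.31, and the gap between the medians of the lists was 0.38 instead of 1.47. P3 is also the array with the most dendritic cell, class II, macrophage and globin transcripts, as given above.

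P2 was set against P1 as the memory against the naive phenotype. Past 2-fold and higher in P2 were 12 of 43 measured genes, against 4.75% of 12955, and Hjurp was lower, against 2.53%. They were Tk1 (1.96), Ccnb2 (1.93), Ube2c (1.84), Mki67 (1.80), Cenpf (1.51), Birc5, Stmn1 and Aurkb (each 1.37), Tpx2 (1.39), Nusap1 (1.23), Ccna2 (1.15) and Uhrf1 (1.00), of which Aurkb, Tpx2 and Nusap1 are bounds. S phase genes had a median of 0.30 and mitotic genes of 0.71. With probes averaged the S phase median was 0.58 and the gap between the lists 0.02 instead of 0.41. Under normexp correction the mitotic median was 0.43, and 5 genes were higher, against 2.63% of all genes.

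**Figure D3:**
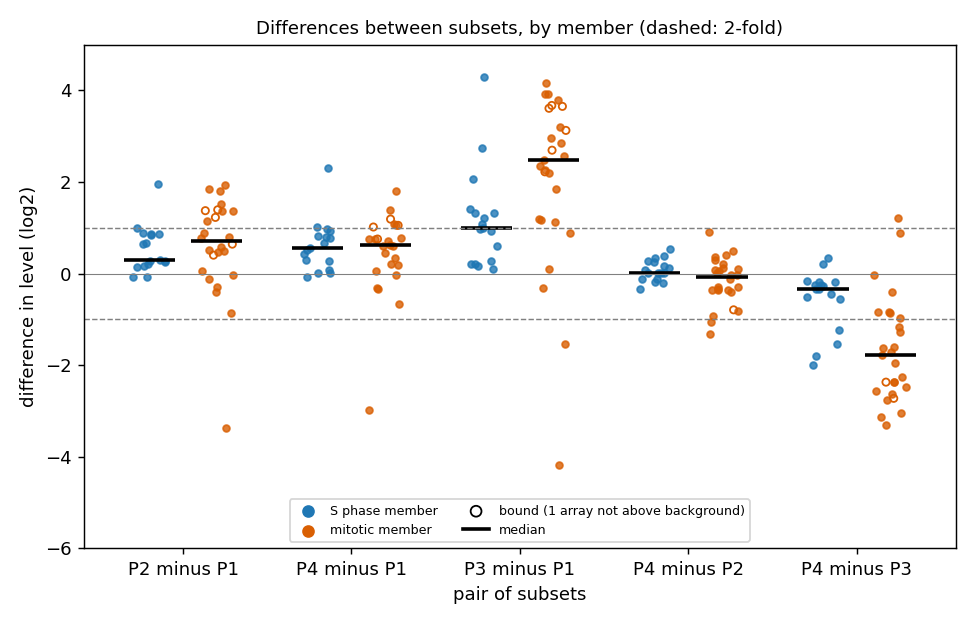
Each point is a gene, as the log2 difference in level between 2 subsets for 5 pairs, blue for S phase and orange for mitotic genes. Bars are medians, open points are bounds and dashed lines mark 2-fold. In P3 minus P1 the mitotic median is 2.47 and the S phase median 1.01, while in P4 minus P2 they are -0.08 and 0.02.

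P4 and P2 were compared directly, since both lay between P1 and P3. Past 2-fold, 0 of 43 measured genes were higher in P4, against 4.85% of 13125, and 2 were lower, against 3.43%. These were Ccnb2 at -1.33 and Ube2c at -1.05, and Ube2c was at -0.61 under normexp correction. Birc5 (-0.93), Cenpf (-0.81) and Ccna2 (-0.39) were also lower in P4 beyond spot noise, whereas Bub1b (0.90), Mcm5 (0.54) and Cenpa (0.48) were higher. Counting against spot noise alone, 5 S phase genes were higher in P4, 2 lower and 10 within it. For mitotic genes 3 were higher, 9 lower and 14 within it. The medians were 0.02 for S phase and -0.08 for mitotic genes.

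**Figure D4:**
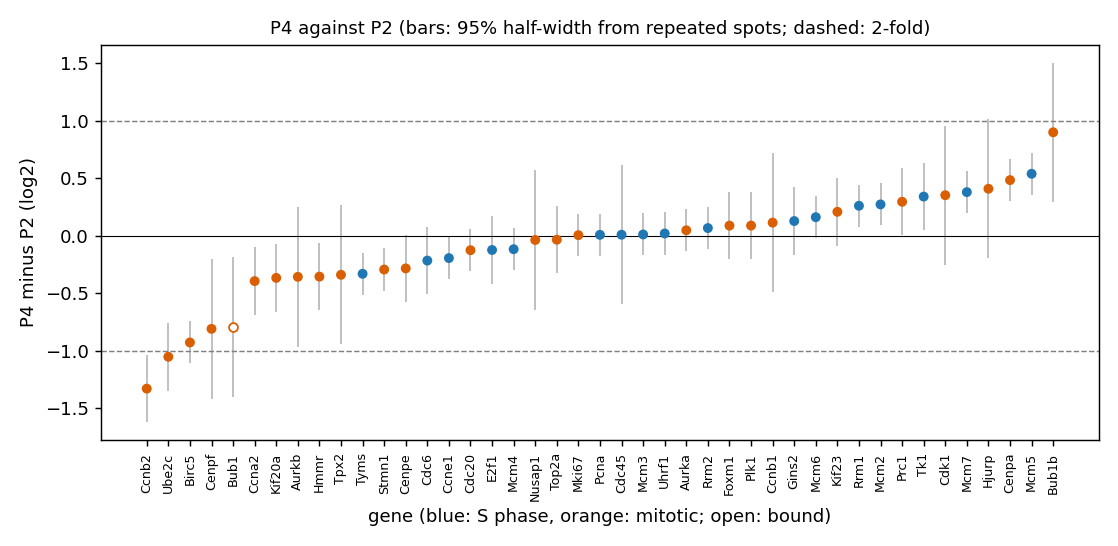
Genes are ordered along the horizontal axis by their log2 P4 minus P2 difference. Grey bars are the 95% margin from repeated spots, which covers no variation between animals, and the open point is a bound. Ccnb2 and Ube2c lie past the dashed 2-fold line at -1.33 and -1.05, and Bub1b is the highest at 0.90.

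Against P3, 23 of 44 measured genes were at least 2-fold lower in P4, against 8.91% of 13988, and Hjurp was higher, against 4.15%. The mitotic median was -1.78 and 19 of 27 were lower, led by Ccnb2 at -3.32, Ube2c at -3.14 and Ccna2 at -3.04. The S phase median was -0.33, with 4 of 17 lower, namely Tk1 (-1.99), Rrm2 (-1.80), Tyms (-1.54) and Cdc6 (-1.24). P3 was also above P2, with 24 of 44 genes at least 2-fold higher, against 10.5% of 14012, and 0 lower, against 5.69%. Its medians there were 1.67 for mitotic and 0.35 for S phase genes. Under normexp correction the mitotic medians were -1.08 for P4 minus P3 and 1.07 for P3 minus P2. The Hjurp difference between P4 and P3 was 0.86 under normexp correction and 0.83 in the authors' values, under 2-fold in both.

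Other genes of the cycle, sharing no gene with the 45, were read from separate lists. The shares of all genes past 2-fold, against which these counts are read, were 12.4% higher and 7.11% lower in P3 and 5.46% and 1.75% in P4, each against P1. Of 44 other replication genes, 11 stood past 2-fold above P1 in P3 and 1 below (median 0.32), and 5 above and 0 below in P4 (median 0.14). Mcm10, a helicase cofactor, differed by 3.55 in P3 and 2.16 in P4. Exo1 (2.42 and 1.39) and the chromatin assembly gene Chaf1a (2.40 and 1.57) followed. Of 60 measured other mitosis genes, 40 were higher in P3 and 0 lower (median 1.31), and of 48 measured in P4, 6 were higher and 1 lower (median 0.25). The condensin genes Ncapg and Ncaph differed by 4.0 and 2.74 in P3 and by 2.22 and 1.17 in P4, while Knl1 and Cdca3 differed by 2.74 and 2.15 in P3 and by 0.40 and 0.0045 in P4. Of 21 G1 cyclin, CDK and RB-E2F genes, 6 were higher and 1 lower in P3 (median 0.59) and 0 were past 2-fold in P4 (median 0.15). Ccnd1, cyclin D1, differed by 4.55 in P3 and 0.56 in P4, E2f2 by 1.95 and 0.13, Mybl2, which encodes B-MYB, by 1.74 and 0.53, and Rbl2, a pocket protein of DREAM, by 1.45 and 0.82.

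**Figure D5:**
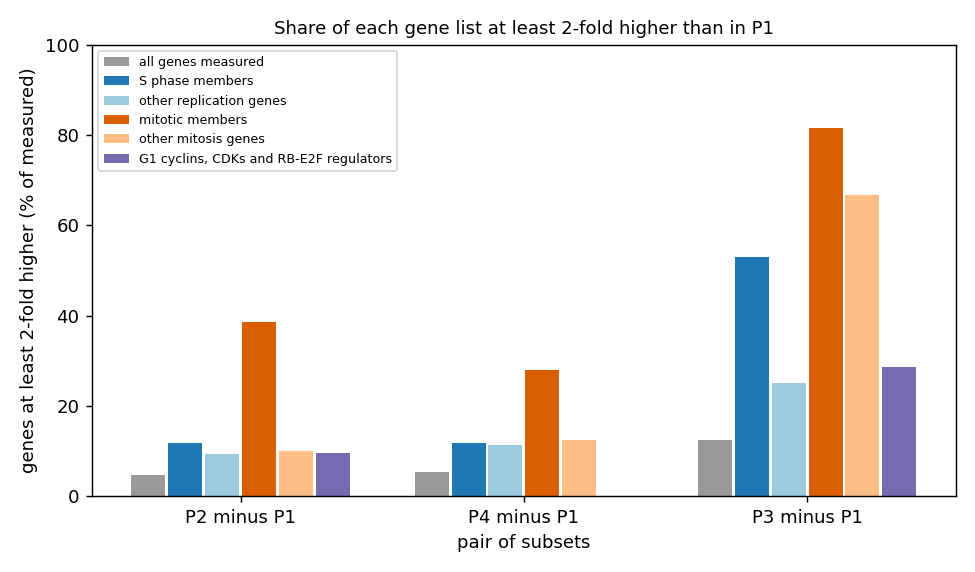
Bars give the percent of measured genes at least 2-fold higher than in P1, for all genes and for each list, in P2, P4 and P3 (1 array each). In P3 the 45 genes' mitotic list stands at 81.5% and its S phase list at 52.9%, against 12.4% of all genes, and in P4 at 28% and 11.8%, against 5.46%.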

How the data were processed

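Total RNA of the 4 sorted subsets was labelled with Cy3 and hybridised to 1 array each, per the labels' protocols. Per the file headers, the authors' spot intensity comes from Agilent Feature Extraction 11.0.1.1. Its processed signal has background and spatial trend removed, and arrays are not scaled to each other. The deposited value table of the authors holds log2 values of 26188 probes with the same sorted values in every column to within 0.000619, so it was read as quantile normalized. It was used as an alternative, and the tool behind it is not stated in the labels.

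Levels were computed from 59305 spots that are no controls on each array, leaving out 122 to 152 outlier spots per array, with 0 saturated. The number of arrays limits the precision. A RefSeq accession named 32994 of 56605 probes (58.3%) through RefSeq's gene table (GRCm38.p6). A gene was its probe with the highest mean level, and was compared between 2 arrays where either had it well above background. Locally bright areas were spots with at least 2 (P1, P4), 3 (P2) or 4 (P3) neighbours within 32 position units raised at least 2-fold over the same spots elsewhere. The counting was tested on simulated data. Described singly were genes past 2-fold in P4 against P1, those with the largest and smallest P3 minus P1 difference in each role, those with disagreeing probes or bright areas, and those above background on no array. Up to 4 genes were named from each other list, and further members are given to account for the set. The genes and lists were chosen with earlier results of these data known. Alternatives were quantile and median scaling, normexp (offset 50, on median signals), the authors' values, other filters, the probe mean, outlier spots kept, no bright areas and a 4-fold threshold. Python 3.11.15, numpy 2.4.6, pandas 2.3.3 and scipy 1.17.1 were used.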

Additional observations from a re-analysis of the deposited data

How the results depend on the processing

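Across the alternatives, 101 of 108 list medians, 104 of 120 counts and 823 of 907 values of single genes past 2-fold stayed within the spot margin (medians, single values) or within 1.5 times (counts), 7, 16 and 83 moved, and 1 turned its sign. That was Aurkb in P4 minus P1, at -0.71 with probes averaged. Its P1 average, not above background, was raised to that array's dimmest signal above background. Its P4 average was kept as read and lay below that value, so the sign came from this step. Under normexp correction the mitotic medians were 0.35 (P4 minus P1), 0.43 (P2 minus P1), 1.31 (P3 minus P1), -1.08 (P4 minus P3) and 1.07 (P3 minus P2), the genes 2-fold higher numbered 3, 5 and 0 in P4 minus P1, P2 minus P1 and P4 minus P3, and 1 was lower in P4 minus P2. At 4-fold, 1, 0, 0 and 11 genes were higher in P4 minus P1, P2 minus P1, P4 minus P3 and P3 minus P2, and 1, 0 and 12 were lower in P3 minus P1, P4 minus P2 and P4 minus P3. Without locally bright areas 0, 0 and 1 genes were lower in P4, P2 and P3 than in P1. With probes averaged the S phase median of P2 minus P1 was 0.58, and 1 gene was lower in P3 than in P1. The mitotic P3 minus P1 median was 2.26 with both arrays above background. In the authors' values 0 genes were higher in P4 than in P3, and the all-gene median of P3 minus P1 was -0.0010 against -0.11. Apart from the sign of Aurkb, the cause of these changes was not tested. Genes below -3 carry a spot margin of ±0.61, so small differences there were not detectable. No paired analysis was possible because each subset has 1 array.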
